A study of Mus musculus with 2 samples.

Results

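The nuclear genes described here encode chaperones and proteases that keep mitochondrial proteins folded and remove the damaged ones. They were chosen by name as 10 genes: Hspa9, Hspd1, Hspe1, Lonp1, Clpp, Clpx, Afg3l2, Spg7, Yme1l1 and Oma1. All 10 were found among the 22587 gene symbols of the deposited tables, each under 1 identifier. The cells were YFP+ cells sorted alive from the hippocampus of adult mice at 12 weeks of age, 4 weeks after tamoxifen (TAM) given at 8 weeks, and were profiled by droplet single cell RNA-seq of 3′ ends. Control (CT) mice carried Nestin-CreERT2 and the ROSA26YFP reporter and no floxed Opa1 allele. The CT library is titled WT in the labels, and its strain label reads the same as that of the knockout. Opa1 cKO mice carried both transgenes together with floxed Opa1. Both groups received TAM, so TAM and Cre were shared by the groups and the floxed allele was not. The Nestin promoter drives Cre and thereby limits recombination and YFP to cells that expressed Nestin at the time of TAM, together with their progeny. Each genotype was 1 library, a pool of 3 mice.

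Mitochondria import most of their proteins unfolded from the cytosol. In the matrix, mortalin (the product of Hspa9) pulls them in and the Hspd1 and Hspe1 products form the folding chamber in which they mature, while LONP1 and the CLPX and CLPP complex degrade proteins that stay misfolded. In the inner membrane, the AFG3L2 and SPG7 proteins form a protease facing the matrix, and YME1L1 and OMA1 act in the inner membrane on its other side. YME1L1 and OMA1 are also the proteases that cut OPA1, the inner membrane fusion protein whose gene was deleted here, and under stress OMA1 cuts DELE1, a step that starts the integrated stress response (ISR).

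The tables held 10799936 unique molecular identifiers (UMIs, each a count of 1 captured transcript) in 4634 barcodes for CT and 18662032 UMIs in 6475 barcodes for Opa1 cKO. Of these, 4186 and 6121 passed the study's limits on genes and mitochondrial share. With its rule of a detected YFP transcript added, 1790 and 3764 cells were kept. The paper reports more cells of each genotype than either step left here, so the cells are not its set. The kept cells had medians of 2555 and 3008 UMIs, and 36 barcodes occurred in both libraries, 9 of them among the cells kept. The cells fell into 7 classes defined by marker genes. The largest, called here NSC pool/astrocyte-like cells because markers of the neural stem cell (NSC) pool and of astrocytes were high in the same clusters, held 1350 CT and 2559 Opa1 cKO cells. It joined 2 clusters. The first held 1346 CT and 768 Opa1 cKO cells. The second held 4 CT and 1791 Opa1 cKO cells and was led by the stress genes Gdf15, Slc7a11, Nupr1 and Hmox1, so that a cluster of almost only 1 library takes part in the values below. In this class 69 UMIs of Opa1 were counted in CT cells against 66 in the cKO cells, 18.6 and 7.83 counts per 1e6 UMIs (CPM), a log2 ratio of -1.25 (95% counting interval -1.76 to -0.74). Only 3′ ends were counted, and whether they lie in the deleted part was not determined here.

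All levels below are CPM of UMIs summed over the cells of a group, and ratios are Opa1 cKO over CT on the log2 scale unless another pair is named. Intervals are exact at 95% and reflect counting error alone. Each genotype being 1 library, there was no replicate error and no test between genotypes, so that a difference between libraries and one between genotypes cannot be told apart. Levels were compared between groups and not between genes.

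Hspd1 and Hspe1 lie head to head on chromosome 1 of GRCm38 (mm10): Hspd1 at 55077835 to 55088243 on the minus strand and Hspe1 at 55088132 to 55091307 on the plus strand. Their annotated 5′ ends overlap. The 30 bases below are shown because they lie between the Hspe1 start and the inner of 2 RefSeq starts of Hspd1, and hold the only stretch in the promoter windows of 8 members that matched a heat shock element (TTC, GAA and TTC, each 2 bases from the next). They are given for the plus strand at chr1:55088053-55088082, from 95 to 66 bases before the RefSeq start of Hspe1 at 55088148 (inside the span given above, which is GENCODE's), and the first exon of a longer Hspd1 transcript covers them on the minus strand. Capitals mark 2 matches that overlap, 1 on each strand.
Hspd1 and Hspe1: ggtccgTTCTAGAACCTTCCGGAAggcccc
The motif, searched on both strands, was present in 0.603% of 32851 RefSeq promoter windows of the same build (250 bases before to 50 after a start). The 250 bases before the RefSeq start of Lonp1, at chr17:56626904-56627153 on the minus strand, are shown because they held 2 further motif matches and no annotated exon.
Lonp1: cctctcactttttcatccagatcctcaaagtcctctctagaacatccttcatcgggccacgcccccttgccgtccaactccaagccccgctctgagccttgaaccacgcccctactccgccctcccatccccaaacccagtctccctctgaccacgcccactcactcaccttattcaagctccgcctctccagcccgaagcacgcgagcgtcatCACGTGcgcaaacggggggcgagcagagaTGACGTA
Capitals mark an E-box, CACGTG, and the first bases of TGACGTAA, a cAMP response element with 1 base changed, whose last base falls on the start itself. An E-box, which a Hspd1 window also held, was in 7.15% and TGACGTAA in 0.499% of all windows. The ATF4 motif TGATGNAA was in 3.97% of all windows, the full cAMP response element TGACGTCA in 1.79% and the NRF1 motif in 0.971%, and these 3 were in none of the members' windows. A match is a match of letters only. No window was read for Hspa9 and Afg3l2.

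In NSC pool/astrocyte-like cells the matrix chaperones and the ATP-dependent matrix proteases were higher in the Opa1 cKO library, and the inner membrane proteases Afg3l2, Spg7 and Yme1l1 were not. This is no split by compartment. Oma1 was at 0.48 (0.00 to 0.98), and Immp1l, an inner membrane peptidase outside the 10, was at 0.74 (0.57 to 0.91). The 10 genes together made up 950 CPM in CT (919 to 982) and 1517 CPM in Opa1 cKO (1491 to 1544), a log2 ratio of 0.68 (0.62 to 0.73). Hspa9 alone gave 461 of the 3519 UMIs in CT and 3820 of the 12788 in Opa1 cKO, so the sum and its interval weigh that gene heavily. Of the 10, 4 were higher by more than 1.5-fold (Hspa9, Lonp1, Hspd1 and Clpx) and 0 were lower by that much. Among the 10063 genes with at least 50 UMIs in the comparison, 13.4% were higher and 11.4% lower by more than 1.5-fold. Hspe1 and Clpp did not pass that size, and their ratios were above those of only 74.3% and 68.1% of these genes. The median log2 ratio of the 10 was 0.43, beside 0.05 over all those genes. The plot of ratios by mitochondrial share shows each gene with its interval.

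Hspa9, the mitochondrial Hsp70, differed most. It was counted 461 times in CT cells and 3820 times in Opa1 cKO cells, at 124.5 CPM (113 to 136) and 453 CPM (439 to 468), a log2 ratio of 1.87 (1.72 to 2.01), or 3.64-fold. That ratio was above those of 99.4% of all genes compared. Hspd1, the Hsp60 subunit of the folding chamber, went from 358 UMIs and 96.7 CPM (86.9 to 107) to 1472 UMIs and 175 CPM (166 to 184), a log2 ratio of 0.85 (0.69 to 1.02). Hspe1, the Hsp10 lid of the same chamber, went from 1081 UMIs and 292 CPM (275 to 310) to 3187 UMIs and 378 CPM (365.2 to 391.5), a log2 ratio of 0.37 (0.27 to 0.47). The head-to-head pair thus had intervals of their ratios that did not overlap, and Hspd1 had the larger ratio. Genes named as pseudogenes of Hspd1 (5), Hspe1 (6) and Hspa9 (1) are annotated and none of these is a row of the tables, so the part of reads shared with them is uncertain. Pseudogenes under other names were not looked for. Hspa9 also shares its strand and part of its span with the annotated genes Gm22200 and Gm26109.

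Lonp1, the ATP-dependent protease that clears oxidized matrix proteins, was counted 127 times in CT and 551 times in Opa1 cKO, 34.3 CPM (28.6 to 40.8) and 65.4 CPM (60.04 to 71.08), a log2 ratio of 0.93 (0.65 to 1.22). Clpx, the unfoldase that feeds the ClpP chamber, had 121 and 486 UMIs, 32.7 CPM (27.1 to 39.0) and 57.7 CPM (52.7 to 63.0), a log2 ratio of 0.82 (0.53 to 1.12). Clpp, the proteolytic chamber itself, had 741 and 2056 UMIs, 200 CPM (186 to 215) and 244 CPM (234 to 255), a log2 ratio of 0.29 (0.16 to 0.41). The chamber gene and its unfoldase thus differed in the size of their ratios, with intervals that did not overlap.

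The inner membrane proteases among the 10 gave a mixed picture. Afg3l2 was counted 91 times in CT and 216 times in Opa1 cKO, 24.6 CPM (19.8 to 30.2) and 25.6 CPM (22.3 to 29.3), with a log2 ratio of 0.06 whose interval ran from -0.30 to 0.43. Its partner Spg7 had 139 and 286 UMIs, 37.5 CPM (31.6 to 44.3) and 33.9 CPM (30.1 to 38.1), a log2 ratio of -0.15 (-0.44 to 0.16). Spg7 shares its strand and part of its span with the annotated gene Gm20388. For both genes of this protease the intervals held 0 and left out a change of 1.5-fold upward, so that for Afg3l2 the upper bound was 1.35-fold and for Spg7 1.12-fold. Without the YFP filter, however, Afg3l2 was at 0.27 with an interval of 0.004 to 0.54, which left out 0. Yme1l1, the other ATP-dependent protease of this membrane, was lower: 352 UMIs gave 95.03 CPM (85.4 to 106) in CT, and 562 UMIs gave 66.7 CPM (61.3 to 72.4) in Opa1 cKO, for a log2 ratio of -0.51 (-0.71 to -0.31). Yme1l1 was the only one of the 10 whose interval lay wholly below 0, and at 0.702-fold it did not pass 1.5-fold. Its ratio was above those of 14.75% of all genes compared, so many genes were lower still. The share of all genes with intervals below 0 was not counted. Oma1, the stress-activated protease, was counted least often, 48 times in CT and 152 times in Opa1 cKO, 12.96 CPM (9.55 to 17.2) and 18.0 CPM (15.3 to 21.1). Its log2 ratio was 0.48 and its interval started at 0.00 and ended at 0.98, and that interval held 0 under 7 of the 8 other settings that gave one and over the cluster of both libraries alone, so no difference was shown for Oma1.

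**Figure D1:**
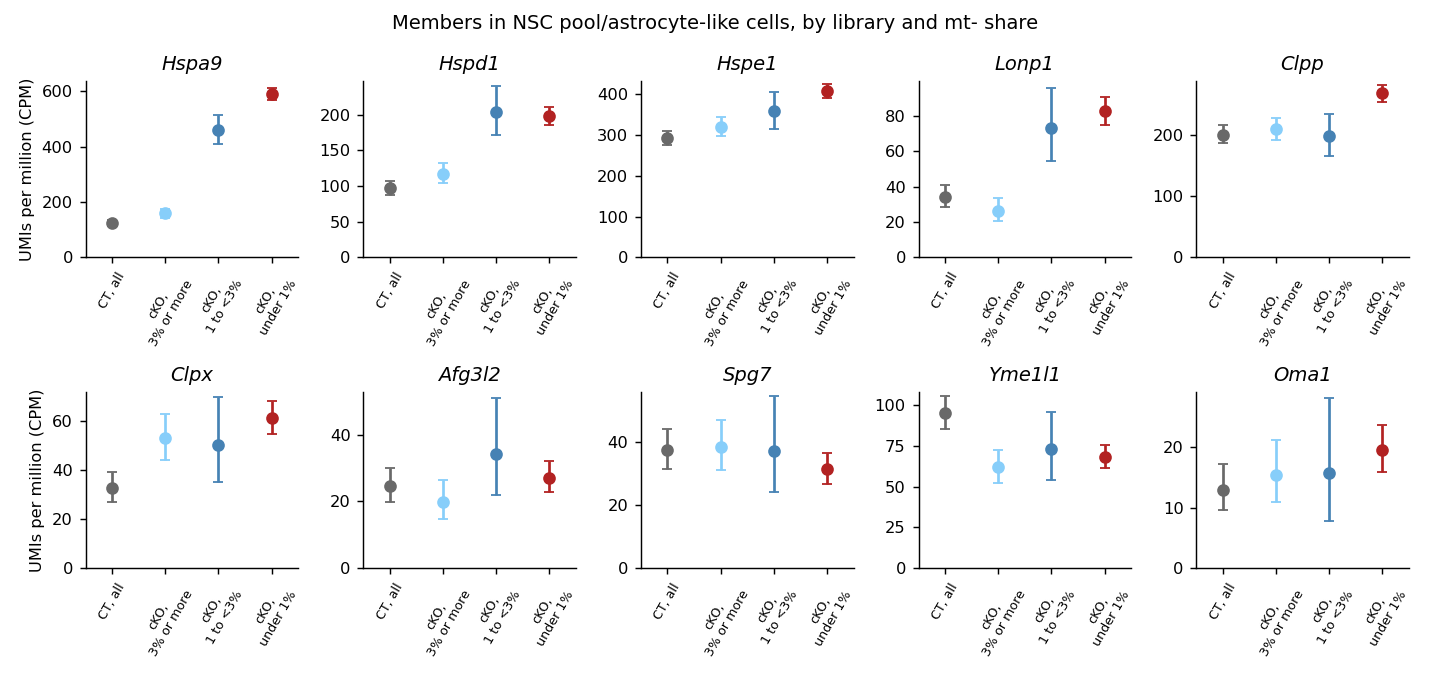
Levels of the 10 genes in NSC pool/astrocyte-like cells as CPM (y axes, each from 0, with its own scale), for all CT cells and for the Opa1 cKO cells of 3 mt- share groups; points are summed UMIs of 1 library and bars are exact 95% Poisson intervals. Hspa9, Hspd1 and Lonp1 lay nearer to CT in Opa1 cKO cells of at least 3% share than in those under 1%, whereas Yme1l1 lay below CT and Clpx above it in both.

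Opa1 cKO cells of this class differed widely in the share of their UMIs that came from the 13 mRNAs encoded by mitochondrial DNA (the mt- share). In CT, 3 cells had a share under 1%, 107 from 1% to under 3% and 1240 at least 3%. In Opa1 cKO these groups held 1578, 229 and 752 cells, or 61.7%, 8.95% and 29.4%. The groups are ranges of a score and not cell types. They differed in other measures too: the 10 ISR genes summed to 1217 CPM in CT and to 5803, 4426 and 1460 CPM in Opa1 cKO cells of low, middle and high share, and Opa1 to 18.6 CPM in CT and 6.46, 7.15 and 10.96 CPM in those groups. The split by ISR level below compares higher with lower levels among low share cells only, and the part of these measures in the results was not tested.

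In Opa1 cKO cells under 1%, the 10 genes summed to 1752 CPM, a log2 ratio to all CT cells of 0.88 (0.83 to 0.94). In Opa1 cKO cells of at least 3% they summed to 1020 CPM, a log2 ratio of 0.10 (0.03 to 0.18). Hspa9 gave 3107 of the 9225 UMIs summed in the low group and 392 of the 2513 in the high group. In the low group 5 of 10 were higher by more than 1.5-fold (Hspa9, Lonp1, Hspd1, Clpx and Oma1) and 0 lower, where 20.4% and 13.6% of 9569 genes were. Oma1, at 0.59, was only just past that size, and without mitochondrially encoded UMIs in the denominator it was at 0.51, which leaves 4. In the high group 1 was higher (Clpx) and 1 lower (Yme1l1), where 2.12% and 14.3% of 8712 genes were. The medians of the 10 genes were 0.54 and 0.10, and those of all genes 0.11 and -0.12. The 5th to 95th percentiles of all genes ran from -0.95 to 1.045 in the low and from -0.86 to 0.44 in the high group. The spread of all genes thus differed as well as their median. Both comparisons share the CT cells.

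Hspa9 was at 590.1 CPM (3107 UMIs) in the low group, 459 CPM (321 UMIs) in the middle group and 159 CPM (392 UMIs) in the high group, beside 124.5 CPM in CT. Its log2 ratios to CT were 2.25 (2.104 to 2.39), 1.88 (1.67 to 2.09) and 0.35 (0.16 to 0.55). Lonp1 followed the same order, at 82.6 CPM (435 UMIs), 72.9 CPM (51 UMIs) and 26.4 CPM (65 UMIs) beside 34.3 CPM in CT, with log2 ratios of 1.27 (0.98 to 1.57), 1.09 (0.59 to 1.57) and -0.38 (-0.83 to 0.06). Thus Lonp1 in Opa1 cKO cells of high share was not above CT. Hspd1 was at 198 CPM (1041 UMIs), 203 CPM (142 UMIs) and 117 CPM (289 UMIs), with log2 ratios to CT of 1.03 (0.86 to 1.21), 1.07 (0.78 to 1.36) and 0.28 (0.05 to 0.51). The low and middle groups did not differ beyond their intervals for Hspd1 and Lonp1.

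Clpx and Yme1l1 gave like values in both share groups. Clpx was at 61.0 CPM (321 UMIs) in the low group and 52.8 CPM (130 UMIs) in the high group, with log2 ratios to CT of 0.90 (0.59 to 1.21) and 0.69 (0.32 to 1.06). Yme1l1 was at 68.2 CPM (359 UMIs) and 61.7 CPM (152 UMIs), with log2 ratios of -0.48 (-0.70 to -0.26) and -0.62 (-0.91 to -0.34). Within Opa1 cKO, the intervals of low over high share held 0 for Clpx (-0.09 to 0.51) and Yme1l1 (-0.13 to 0.43). Hspe1 (408 and 321 CPM) and Clpp (267 and 208 CPM) were between these patterns, with log2 ratios of 0.48 and 0.42 in the low group and of 0.14 and 0.06 in the high group. Afg3l2 and Spg7 had intervals that held 0 in both groups, as scaled by total UMIs (Spg7 in the low group was at -0.34, interval -0.68 to -0.00, without mitochondrially encoded UMIs), and Oma1 had 19.6 CPM (103 UMIs) in the low and 15.4 CPM (38 UMIs) in the high group, where its log2 ratio of 0.25 had an interval of -0.40 to 0.90.

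Within the Opa1 cKO library, which needs no second library, low share cells over high share cells gave 3 genes higher by more than 1.5-fold and 0 lower, where 22.7% and 4.26% of 9150 genes were. These were Hspa9 with a log2 ratio of 1.89 (1.74 to 2.05), Lonp1 with 1.65 (1.27 to 2.04) and Hspd1 with 0.75 (0.56 to 0.95). The median of all genes was 0.25 here, and relative to it the 3 ratios were 1.64, 1.39 and 0.50. Relative to the same median, Clpx and Yme1l1 turned from 0.21 and 0.14 to -0.05 and -0.11. Spg7 was the only one of the 10 that was lower in low share cells as scaled by total UMIs, at -0.30 (-0.67 to 0.08). At matched share of at least 3%, Opa1 cKO over CT gave 0.36 (0.16 to 0.56) for Hspa9, 0.71 (0.34 to 1.09) for Clpx and -0.63 (-0.92 to -0.35) for Yme1l1. At matched share of 1% to under 3%, Hspa9 was at 459 CPM in Opa1 cKO and at 125 CPM (31 UMIs) in CT, a log2 ratio of 1.88 (1.35 to 2.46). Within CT, middle over high share gave 0.01 (-0.57 to 0.54) for Hspa9 and -0.03 (-0.22 to 0.17) for the sum of the 10 genes.

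**Figure D2:**
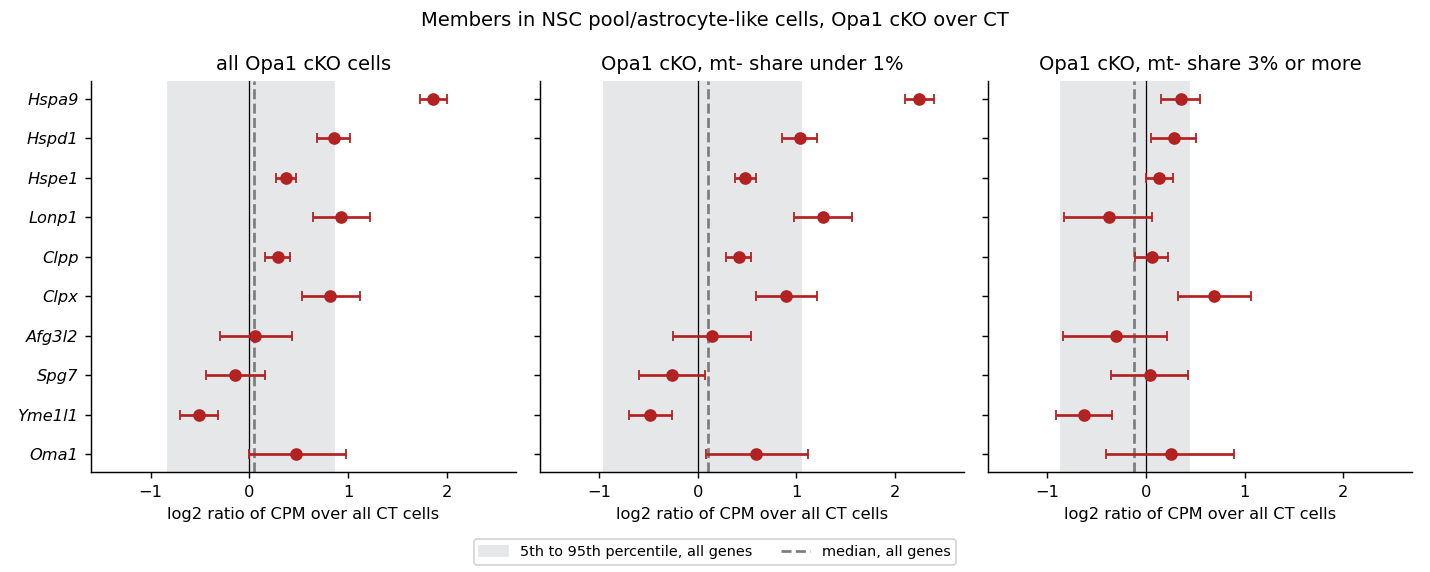
Log2 ratio of CPM over all CT cells (x axes) for each gene (y axis) in NSC pool/astrocyte-like cells, for all Opa1 cKO cells, those under 1% and those of at least 3% mt- share; bars are exact 95% counting intervals, the grey band spans the 5th to 95th percentile of all genes with at least 50 UMIs and the dashed line is their median. Hspa9 and Lonp1 lie beyond the band in the left and middle panels, and Clpx beyond it in the right panel.

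The clusters and the mt- share groups held nearly the same cells. All 1578 low share Opa1 cKO cells lay in the cluster that held almost only Opa1 cKO cells, and 737 of the 768 Opa1 cKO cells in the cluster of both libraries were high share cells, so that values over that cluster are no second line of evidence. Over the cluster of both libraries alone (1346 CT and 768 Opa1 cKO cells), an alternative chosen after the clusters were seen, the median of the 10 genes was 0.11, Hspa9 was at 0.34 (0.15 to 0.54), Hspd1 at 0.28 (0.05 to 0.51), Hspe1 at 0.12 (-0.01 to 0.25), Lonp1 at -0.42 (-0.88 to 0.02), Clpp at 0.03 (-0.13 to 0.20), Clpx at 0.65 (0.28 to 1.02), Afg3l2 at -0.33 (-0.86 to 0.19), Spg7 at 0.09, Yme1l1 at -0.66 (-0.94 to -0.38) and Oma1 at 0.27. The clusters were made from all genes, these 10 among them.

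The stress program was then used to split the 1578 low share Opa1 cKO cells at the median share of UMIs from the 10 ISR genes, 0.573% of a cell's UMIs. Of these cells 399 lay within 10% of that value, so these are parts of a range. The ISR genes summed to 7322 CPM in the cells above it and 4413 CPM in those at or below it, beside 1217 CPM in CT. Both sets were thus above CT in these genes, and the split compares higher with lower levels among raised ones. Of the CT cells of the class, 2 were above that median. Of the 10 genes, 0 were past 1.5-fold in either direction between the 789 cells above and the 789 at or below, where 3.04% and 1.18% of 8288 genes were. Hspa9 was at 624 CPM above and 559 CPM at or below that value, a log2 ratio of 0.16 (0.06 to 0.26). That ratio was above those of only 71.0% of these genes, whose median was 0.03. Its interval was the only one of the 10 that left out 0, and it had the most UMIs of them (1570 and 1537). No share over all genes stands beside this. Hspd1 was at 198 and 197 CPM, a log2 ratio of 0.01 (-0.17 to 0.19), and Lonp1 at 82.7 and 82.6 CPM, a log2 ratio of 0.00 (-0.28 to 0.28). Both sets of cells were above CT for Hspa9, with log2 ratios of 2.33 (2.17 to 2.48) and 2.17 (2.02 to 2.32).

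Markers of other cell types were summed over the cells of the class. Those of mature neurons were at 7.56 CPM in CT against 8.66 in cKO cells (3 of 6 higher, Slc17a7 at 0 in Opa1 cKO), of microglia at 15.7 and 24.3 CPM (3 of 6 higher, Tmem119 at 0 in Opa1 cKO), of endothelial cells at 41.8 and 30.4 CPM (1 of 6 higher, Kdr at 0 in both) and of oligodendrocytes at 132 and 140 CPM (2 of 6 higher, none at 0). Markers of oligodendrocyte precursors summed to 92.1 and 287 CPM, with 2 of 4 higher and the defining marker Pdgfra at 0 in both, and to 358 CPM in the low and 118 CPM in the high share group. Mural markers were at 137 and 104 CPM (2 of 6 higher). Ependymal markers were at 137 and 108 CPM (5 of 6 higher), with 72.7 CPM in the low and 182 CPM in the high share group. The part of all these markers in the results was not tested. The markers of the NSC pool themselves summed to 69617 CPM in CT, 56580 CPM in the low and 78282 CPM in the high share group, with 2 of 9 higher in Opa1 cKO. Those of astrocytes summed to 3529, 2742 and 3733 CPM in the same order, with 2 of 6 higher in Opa1 cKO.

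The share of cells in which a gene was seen was higher in Opa1 cKO for 7 of the 10 genes, with intervals that overlapped for Clpp and Oma1. No share over all genes stands beside this count. Cells were thinned to 1500 UMIs, and the shallower ones (93 of CT, 198 of Opa1 cKO) were dropped. Then Hspa9 had a UMI in 15.9% of CT cells (exact binomial interval 13.9% to 18.1%) and 43.3% of Opa1 cKO cells (41.3% to 45.3%), beside 26.5% and 64.1% unthinned. In Opa1 cKO it was seen in 54.4% (51.8% to 57.0%) of low share and 19.3% (16.5% to 22.4%) of high share cells. Hspd1 was seen in 13.1% of CT cells against 22.2% of Opa1 cKO cells, Hspe1 in 35.3% and 42.2%, Lonp1 in 5.33% and 8.51%, and Yme1l1 in 12.5% and 9.28%. Afg3l2 was seen in 4.14% and 3.47%, which goes against its CPM, and no order was read from it. The shares were 26.1% and 29.9% for Clpp, 4.54% and 8.22% for Clpx, 5.41% and 4.83% for Spg7 and 1.99% and 2.16% for Oma1. Every cell type uses these genes, so no class serves as a background that lacks them. Per thinned CT cell 1.24 of the 10 genes were seen on average, and 1.98 per low share and 1.25 per high share Opa1 cKO cell. Cells with none of the 10 made up 25.0% in CT, 8.49% in the low and 25.0% in the high share group.

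In 5 of the 6 other classes, too, the interval of the Hspa9 ratio lay above 0. The share of all genes with such intervals was not counted. The Hspa9 ratio there was above those of 93.75% (oligodendrocyte-like) to 98.06% (endothelial-like) of all genes compared, and of 59.75% in ependymal-like cells. In activated NSC-like cells (39 CT and 432 Opa1 cKO cells) its level was 184 CPM (19 UMIs) in CT against 633 CPM (845 UMIs) in Opa1 cKO, with a log2 ratio of 1.79 (1.13 to 2.52). In that class 4 of 10 genes were higher and 2 lower by more than 1.5-fold, where 24.9% and 14.6% of 4608 genes were, and 3 of the 10 had fewer than 50 UMIs there. The higher ones were Hspa9, Lonp1 at 1.58 (3 UMIs in CT, 0.00 to 3.88), Clpx at 1.15 and Oma1 at 0.63, and the lower ones Yme1l1 and Afg3l2 at -0.69. The intervals of Clpx, Oma1 and Afg3l2 held 0. Progenitor and neuron-like cells (139 and 171 cells) had 213 CPM (96 UMIs) and 447 CPM (270 UMIs) of Hspa9, a log2 ratio of 1.07 (0.73 to 1.42). There 3 of the 9 genes with at least 20 UMIs were higher and 1 lower by more than 1.5-fold, where 13.3% and 15.3% of 3941 genes were, with the higher ones being Hspa9, Hspd1 and Afg3l2 (10 and 21 UMIs, interval -0.50 to 1.90) and the lower one Yme1l1. Clustering the lineage cells alone gave no activated NSC-like class. Its progenitor and neuron-like class held 169 CT and 423 Opa1 cKO cells and had 6 activated NSC markers over 2-fold, so it is not the same set of cells. There Hspd1 was at 0.41 and Afg3l2 at -0.13, so that of the 3 only Hspa9, at 1.29 (1.00 to 1.58), was past 1.5-fold. In the class as first defined, the other chaperones were also higher. Hspd1 had a log2 ratio of 0.60 (0.29 to 0.93) and Hspe1 of 0.52 (0.20 to 0.85). Lonp1 in these cells was counted 24 times in CT (53.3 CPM) and 26 times in Opa1 cKO (43.01 CPM), a log2 ratio of -0.31 (-1.17 to 0.55), and with the lineage clustering the ratio was 0.47 (-0.17 to 1.16), so no direction was shown.

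Among the classes outside the neuronal lineage, Hspa9 had a log2 ratio of 1.21 (0.65 to 1.81) in mural-like cells and of 1.07 (0.51 to 1.65) in endothelial-like cells. In oligodendrocyte-like cells 35 UMIs in CT (122 CPM) stood against 88 in Opa1 cKO (202 CPM), a log2 ratio of 0.73 (0.15 to 1.34). In ependymal-like cells it was at 192 CPM (21 UMIs) and 226 CPM (215 UMIs), a log2 ratio of 0.24 whose interval of -0.41 to 0.96 held 0. The intervals of progenitor and neuron-like, ependymal-like, endothelial-like and oligodendrocyte-like cells lay wholly below that of NSC pool/astrocyte-like cells. Opa1 itself was counted rarely here, in CT and Opa1 cKO 7 and 7 times in oligodendrocyte-like and 1 and 5 times in mural-like cells. Endothelial-like cells had 2 and 5 UMIs of it and ependymal-like cells 4 and 3. Total UMIs differed, so that in ependymal-like cells these were 36.5 and 3.16 CPM, a log2 ratio of -3.53 (-6.30 to -0.97). In oligodendrocyte-like, mural-like and endothelial-like cells the interval of the Opa1 ratio held 0. Endothelial-like cells also carried 5 of 6 mural markers and were led by globin genes. The part of free RNA in these values was not tested.

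The Yme1l1 ratio was below 0 in all 7 classes, and the share of all genes for which this held was not counted. By its ratio, Yme1l1 lay above 1.3% (mural-like) to 28.15% (oligodendrocyte-like) of all genes compared in a class. Its CPM in CT against Opa1 cKO were 126 and 63.6 in activated NSC-like cells, 191 and 103 in progenitor and neuron-like cells, 119 and 70.5 in ependymal-like cells, 153 and 67.2 in mural-like cells, 120 and 98.0 in endothelial-like cells and 69.5 and 59.7 in oligodendrocyte-like cells. The log2 ratios of -0.98 (-1.83 to -0.01), -0.90 (-1.39 to -0.41) and -1.19 (-2.07 to -0.31) in activated NSC-like, progenitor and neuron-like and mural-like cells had intervals below 0. Intervals held 0 for the ratios of -0.75 (ependymal-like), -0.29 (endothelial-like) and -0.22 (oligodendrocyte-like). Lonp1 in mural-like cells had 0 UMIs in CT, which allows up to 3 counts, and 16 in Opa1 cKO, so that its log2 ratio against that limit was at least 1.35, or at least 0.88 with the counting error of the 16 UMIs. Clpx was counted 3 times in CT endothelial-like cells and 19 times in Opa1 cKO, with a log2 ratio of 1.93 (0.16 to 4.33).

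**Figure D3:**
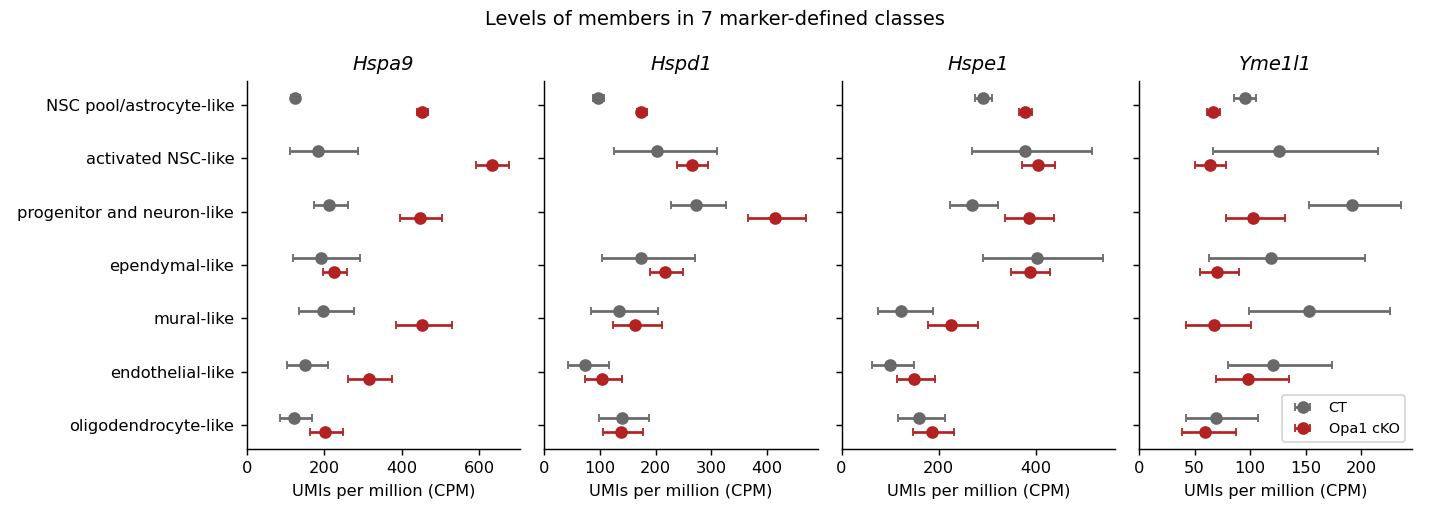
CPM (x axes, from 0) of Hspa9, Hspd1, Hspe1 and Yme1l1 in 7 marker-defined classes (y axis), CT in grey and Opa1 cKO in red, with exact 95% Poisson intervals over 1 library each. The Hspa9 point lies higher and the Yme1l1 point lower in Opa1 cKO in each class, with intervals that overlap in several.

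Across classes the levels of the genes differed already in CT. Hspd1 was highest in progenitor and neuron-like cells (273 CPM), followed by activated NSC-like (203), ependymal-like (174), oligodendrocyte-like (139), mural-like (135), NSC pool/astrocyte-like (96.7) and endothelial-like cells (73.0), and no 2 neighbours in that order differed beyond their intervals. Hspe1 had another order, from ependymal-like (402 CPM) and activated NSC-like cells (377) through NSC pool/astrocyte-like (292) and progenitor and neuron-like cells (269) to oligodendrocyte-like (160), mural-like (122) and endothelial-like cells (98.8). The step from progenitor and neuron-like to oligodendrocyte-like cells was the only one between neighbours in that order whose intervals did not overlap. In CT, Hspa9 ran from 122 CPM in oligodendrocyte-like cells and 124.5 CPM in NSC pool/astrocyte-like cells to 213 CPM in progenitor and neuron-like cells, and in Opa1 cKO from 202 CPM in oligodendrocyte-like to 633 CPM in activated NSC-like cells.

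Over the 14 points given by 7 classes and 2 libraries, the genes whose log2(CPM + 10) was most like that of Hspd1 by Pearson's r, among 5336 other genes, were Cct3 (0.92), Emx1 (0.90), Ube2n (0.90), Cct8 (0.90) and Erh (0.88). Cct3 and Cct8 encode subunits of the cytosolic folding chamber. Hspe1 stood at rank 165 with 0.72 and Hspa9 at rank 619 with 0.55. Those most like Lonp1 were Nsfl1c (0.87), Riok2 (0.83), Ndufaf1 (0.82), Mrpl13 (0.78) and Fbxw5 (0.78), and Hspa9 stood at rank 360 with 0.45. Several Lonp1 points rested on few UMIs (0 in CT mural-like, 3 in CT activated NSC-like and 8 in Opa1 cKO oligodendrocyte-like cells). The order of genes like Lonp1 is therefore uncertain. Points share their library or their cell type with others, so these are descriptions.

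Related genes were described from 5 lists in NSC pool/astrocyte-like cells, with the same background of 13.4% higher and 11.4% lower. Among 28 other mitochondrial chaperones and proteases, 4 were higher and 0 lower by more than 1.5-fold, with a median log2 ratio of 0.38. The highest were Dnaja3 at 0.90 (0.61 to 1.20), a cochaperone of the Hspa9 product, Immp1l at 0.74 (0.57 to 0.91), an inner membrane peptidase, and Phb, a prohibitin, at 0.67 (0.49 to 0.85). The lowest were Nln at -0.25 (-0.57 to 0.07), Abcb10 at -0.16 (-0.81 to 0.51) and Lactb at -0.01 (-0.35 to 0.33). Among 14 genes listed as substrates and partners, which include substrates of the proteases, partners of the import motor and a cytosolic Hsp70 (Hspa14), 6 were higher and 1 lower, with a median of 0.50. These were led by Hspa14 at 0.95 (0.63 to 1.28), Maip1, a partner of the AFG3L2 protease, at 0.87 (0.59 to 1.16) and Mrpl32, a ribosomal protein matured by that protease, at 0.70 (0.50 to 0.91). The lowest were Opa1, given above, Pam16 at -0.05 (-0.75 to 0.68) and Dele1, the OMA1 substrate, at 0.12 (-0.10 to 0.34).

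Among 17 regulators of the stress and heat shock responses 9 were higher and 0 lower, with a median of 0.62. Trib3 had 706 UMIs in Opa1 cKO and 0 in CT. With the 0 set at 3 counts its log2 ratio was 6.69, and the exact interval from both counts started at 6.39. Atf5, a transcription factor of the mitochondrial unfolded protein response, was at 3.18 (2.82 to 3.56) and Ddit3 at 2.77 (2.55 to 2.99), while Eif2ak4, Eif2ak3 and Eif2ak2, kinases that phosphorylate eIF2α, were at -0.29, -0.26 and -0.23 with intervals that held 0. Among 27 cytosolic chaperones 10 were higher and 1 lower, with a median of 0.37. Bag1 at 1.25 (1.03 to 1.48), Cct4 at 1.00 (0.81 to 1.19) and Hspb1 at 0.90 (-0.71 to 2.93) were the highest, and Hspa1a at -0.62 (-1.39 to 0.17), Hsph1 at -0.41 (-0.90 to 0.08) and Bag3 at -0.41 (-0.82 to 0.00) the lowest. Among 24 proteasome subunits 5 were higher and 0 lower, with a median of 0.42, from Psma7 at 0.17 (0.06 to 0.28), Psma3 at 0.24 (0.14 to 0.35) and Psmb2 at 0.27 (0.18 to 0.37) up to Psmc6 at 0.61 (0.42 to 0.80), Psmd1 at 0.70 (0.43 to 0.97) and Psmc5 at 0.95 (0.80 to 1.11).

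By mt- share, the medians of the other mitochondrial list were 0.49 in low and 0.17 in high share Opa1 cKO cells over CT. Of its 28 genes, 10 and 0 were past 1.5-fold upward, where 20.4% and 2.12% of all genes were. Downward they numbered 0 and 1, where 13.6% and 14.3% of all genes were. Medians of the cytosolic chaperones were 0.49 and 0.18, of the proteasome 0.52 and 0.20, of the substrates and partners 0.62 and 0.21 and of the regulators 0.76 and -0.00 (15 genes). The medians of the cytosolic lists were thus close to those of the mitochondrial ones.

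**Figure D4:**
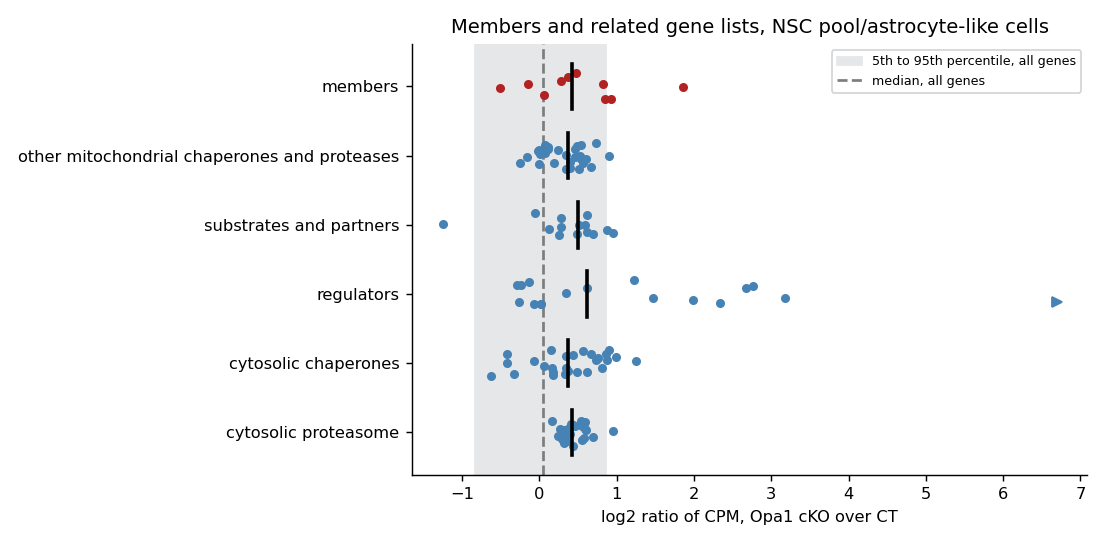
Log2 ratio of CPM, Opa1 cKO over CT, in NSC pool/astrocyte-like cells (x axis) for the members (red) and the genes of 5 related lists (blue) with at least 20 UMIs. Black bars are list medians, and the triangle is Trib3 with its 0 UMIs in CT set at 3 counts. The grey band and dashed line are the 5th to 95th percentile and the median of all genes with at least 50 UMIs. The medians of all 6 rows lie between 0.37 and 0.62, right of the all-gene median of 0.05.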

How the data were processed

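Each genotype was 1 library of 10x Genomics 3′ v2 single cell RNA-seq. The deposited values are UMI counts, made by the authors with Cell Ranger (2.1.1 in the submitters' processing notes, 3.1.0 in the matrix header) on mm10, without normalization. The study's filters were applied: over 600 and under 7500 genes, a mitochondrial share below 20% and 1 or more UMIs of the YFP reporter. They were clustered with Seurat 5.3.0 and sctransform 0.4.2 in R 4.3.3 (8 dimensions, resolution 0.2) and named where at least 3 fixed markers were over 2-fold. Joining NSC pool and astrocyte markers was decided after the clusters were seen, and no doublet caller was run. CPM have exact Poisson intervals, ratios exact intervals from the binomial split and shares Clopper-Pearson intervals, computed in python 3.11.15 with scipy 1.17.1. These cover counting error only. Genes with 0 UMIs were set at 3 counts. Code was tested on simulated data. Alternatives changed the cells, clustering, denominator, weighting, scaling and depth.

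The text names all 10 members, Opa1, the 3 highest and 3 lowest genes of each list (other mitochondrial chaperones and proteases, substrates and partners, regulators, cytosolic chaperones, proteasome) and the 5 genes most like Hspd1 and Lonp1. Other genes were named after their values were seen. The members and lists were chosen with earlier results of these data known. Coordinates are from GENCODE M21.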

Additional observations from a re-analysis of the deposited data

How the results depend on the processing

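The Opa1 cKO over CT ratios of the members and their median in the largest class were recomputed under 9 other settings and 1 added after the clusters were seen. Ratios by mt- share had 1 other denominator, those of progenitor and neuron-like cells the lineage clustering and the shares the unthinned counts, while the low over high share, matched share and ISR comparisons and the other classes had none. In NSC pool/astrocyte-like cells the median of the members, 0.43, stayed between 0.33 (mean of per-cell CPM) and 0.44 (thinned to 1500 UMIs) under the 9. Over the cluster of both libraries alone it moved to 0.11, and Lonp1 reversed there from 0.93 to -0.42, and the cause was not tested. At resolution 0.4, where a cluster of 580 Opa1 cKO cells had no name, Hspa9 was at 1.55 and Lonp1 at 0.59. Yme1l1 stayed between -0.66 and -0.41 and Clpx between 0.65 and 0.86 under all 10, while Afg3l2 (-0.33 to 0.27) and Spg7 (-0.20 to 0.09) changed sign among them. The medians of the low and high mt- share groups kept their direction under each of their 10 alternatives, the cut at 2% included. In progenitor and neuron-like cells the lineage clustering turned Lonp1 from -0.31 to 0.47, Afg3l2 from 0.64 to -0.13 and Spg7 from -0.03 to 0.01, all with intervals that held 0. Its class of that name was a wider set, 169 CT and 423 Opa1 cKO cells instead of 139 and 171, and carried activated NSC markers. All 20 shares of cells were higher unthinned. Depth limits Oma1 and, outside the largest class, most members. No paired analysis was possible because each genotype was 1 library, and for the same reason no library could be left out.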
